A study of Mus musculus with 6 samples.

Results

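The genes described are 10 members of the cytotoxic programme of lymphocytes, 6 of them granule genes (Prf1, Gzma, Gzmb, Gzmk, Nkg7 and Ctsw) and 4 of them receptor genes shared with natural killer (NK) cells (Klrb1c, Klrd1, Klrk1 and Klrc1). They were chosen by symbol, and all 10 were found among the 49315 Ensembl genes of the deposited count tables. Of the 10, 9 passed the filter on low values (a depth-scaled level, or CPM, of at least 2 and at least 10 counts in at least 1 library), as did 12838 genes in all. Klrc1 did not pass it and is given as counts and ratios outside all gene tallies.

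The libraries are RNA sequencing of CBir1 TCR Tg CD4+ T cells, transgenic mouse T cells whose receptor recognises a flagellin of gut bacteria, and the study compared memory cells with and without CAMCI treatment. Each of the 6 conditions had 1 library: MEP1+Metformin+Rapamycin (the combination), MEP1+Rapamycin, MEP1+Metformin, MEP1+CMC, No treatment and the naive CD4 control. In the 5 transferred conditions, CD45.1 CD4+CD44- donor cells were given on day 0 to C57BL/6 mice carrying CD45.2, and on days 1 and 7 the recipients were immunised with CBir1 flagellin (50 ug) and CT (1 ug). The 4 MEP1 groups were given 3 ug of MEP1 intravenously on days 28 and 35 and then, for 5 days in a row, both inhibitors, rapamycin, metformin or the vehicle CMC alone, where every inhibitor was given in CMC. Rapamycin inhibits the kinase mTOR, and metformin inhibits mitochondrial respiration. No treatment mice were given neither MEP1 nor inhibitors at that stage, and per the protocol every recipient was challenged with 3 ug of MEP1 on day 56. Spleen donor cells were collected by sorting on day 63. The naive CD4 control is the same transgenic CD4+ cell type from C57BL/6 spleen, and the labels do not say how its cells were selected. Neither the number of mice per library nor pooling is given in the labels. For No treatment, the heading inside the count file reads as if there had been no challenge, which its label and the protocol contradict; grouping followed the label. Should the heading be true, every comparison with No treatment also holds the day 56 challenge.

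Cytotoxic lymphocytes kill by releasing granules in which perforin opens a path into the target cell for granzymes, a family of serine proteases. NK receptors of the killer cell lectin-like family, encoded together in the NK gene complex, tell the cell whether a target carries stress ligands or normal MHC molecules. The programme is best known from CD8 T cells and NK cells, and CD4 T cells that have met antigen repeatedly can also use parts of it.

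Among the granule genes, Prf1 encodes perforin and lies at chr10:61297836-61304263 on the plus strand of GRCm38, the build of the deposited files. Gzma and Gzmk encode granzymes A and K, neighbours at chr13:113093825-113100979 and chr13:113171608-113225908 on the minus strand. Gzmb encodes granzyme B, which activates caspases in the target cell, and lies at chr14:56258856-56262260 on the minus strand. Nkg7 encodes a membrane protein of the granules that takes part in their release and lies at chr7:43437073-43438249 on the plus strand. Ctsw encodes cathepsin W, a cysteine protease of cytotoxic lymphocytes, and lies at chr19:5465240-5468498 on the minus strand. The receptor genes are all on chromosome 6. Klrb1c encodes NK1.1, the activating receptor by which NK and NKT cells of C57BL/6 mice are recognised, at chr6:128778485-128789215 on the minus strand. Klrd1 encodes CD94, the partner chain of NKG2A, at chr6:129591782-129598775 on the plus strand. Klrk1 encodes NKG2D, an activating receptor for stress ligands, at chr6:129610323-129623864 on the minus strand. Klrc1 encodes NKG2A, the inhibitory receptor that pairs with CD94, at chr6:129666015-129678973 on the minus strand.

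The promoters of Nkg7, Prf1 and Gzmk are shown because they had the most transcript in MEP1+CMC among the members with a window, and because the T-box transcription factor gene Eomes was among the genes closest to Nkg7 over the libraries. They are RefSeq windows of GRCm38.p6 that run from 250 bases before to 50 bases after the RefSeq gene start, written along the gene's strand; for Gzmk that start lies inside the longer Ensembl gene. Nkg7 is chr7:43436888-43437187 on the plus strand, Prf1 is chr10:61297586-61297885 on the plus strand and Gzmk is chr13:113180916-113181215 on the minus strand. Capitals mark the T-box core letters AGGTGT or their reverse complement ACACCT.
Nkg7: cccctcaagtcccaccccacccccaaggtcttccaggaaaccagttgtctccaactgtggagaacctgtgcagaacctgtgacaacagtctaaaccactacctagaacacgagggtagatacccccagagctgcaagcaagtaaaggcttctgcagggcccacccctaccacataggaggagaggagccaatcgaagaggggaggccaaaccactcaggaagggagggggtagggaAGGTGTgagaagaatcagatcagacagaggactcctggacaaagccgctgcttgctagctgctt
Prf1: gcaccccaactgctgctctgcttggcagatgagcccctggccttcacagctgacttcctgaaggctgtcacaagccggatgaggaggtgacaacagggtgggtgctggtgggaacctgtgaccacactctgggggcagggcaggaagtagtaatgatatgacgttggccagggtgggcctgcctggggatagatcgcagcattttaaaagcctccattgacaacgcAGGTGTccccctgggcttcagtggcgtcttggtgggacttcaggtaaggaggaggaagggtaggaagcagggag
Gzmk: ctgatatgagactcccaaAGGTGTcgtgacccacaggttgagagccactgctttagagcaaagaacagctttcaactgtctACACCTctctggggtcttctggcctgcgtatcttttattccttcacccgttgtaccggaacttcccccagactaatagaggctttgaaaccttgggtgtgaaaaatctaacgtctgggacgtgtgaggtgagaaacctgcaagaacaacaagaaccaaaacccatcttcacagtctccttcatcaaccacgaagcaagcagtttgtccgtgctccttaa
The T-box core stood 14 bases before the annotated start of Nkg7 and 24 bases before that of Prf1, on the gene's strand in both. In Gzmk it occurred at 232 bases before the start on the gene's strand and at 169 bases on the other. The table held windows for 8 of the 10 members, of which 4 (Prf1, Gzma, Gzmk and Nkg7) carried the 6 letters, against 13.7% of all 32851 windows. The longer form AGGTGTGA occurred in Nkg7 alone among these 8, and in 1.28% of all windows. The Runx core TGTGGT, searched on both strands, occurred in 7 of the 8, all but Gzmk, and in 16.8% of all windows. These matches describe letters and not binding.

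The libraries held from 26139000 counts (naive) to 60622310 counts (No treatment). Levels are given as TMM CPM, counts scaled to library depth with edgeR's trimmed mean method. The 8 CD4 T-cell markers, which include CD3 genes that all T cells express, summed to 4353 to 5960 TMM CPM in all 6 libraries. Among them Zbtb7b had 154 TMM CPM in naive and from 48.4 (MEP1+Metformin) to 67.9 (No treatment) in the transferred libraries. Ribosomal RNA-like genes took 1.00% to 3.13% of counts in transferred libraries and 15.4% in naive. Xist, transcribed from the inactive X chromosome, had 11 to 18 counts in the 3 inhibitor libraries, 15368 in MEP1+CMC, 1391 in No treatment and 801 in naive. The Y-linked gene Ddx3y had 2298 to 4849 counts in the 3 inhibitor libraries, 18 in MEP1+CMC, 2066 in No treatment and 7 in naive. The inhibitor libraries therefore differed from MEP1+CMC in sex-linked genes as well as in treatment, which cannot be told apart, and No treatment held both kinds of transcript. Differences between single libraries have no replicate check, so each is given as a log2 ratio with a 95% interval that covers counting error only. A gene passed when it differed by 2-fold or more and its interval did not span a ratio of 1.

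The granule genes with the most transcript were Nkg7 and Gzmk. Nkg7 had 447 TMM CPM in the combination, 197 in MEP1+Rapamycin, 420 in MEP1+Metformin, 1595 in MEP1+CMC, 460 in No treatment and 23.6 in naive. Gzmk had 145 TMM CPM in the combination, 39.2 in MEP1+Rapamycin, 126 in MEP1+Metformin, 474 in MEP1+CMC, 146 in No treatment and 1.13 in naive. Both genes were highest after MEP1+CMC, lowest in the naive cells and second lowest after MEP1+Rapamycin. For Gzmk the combination and No treatment did not differ beyond counting error, while for Nkg7 every neighbour in the order did.

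Prf1 had 64.8 TMM CPM in the combination, 36.1 in MEP1+Rapamycin, 51.2 in MEP1+Metformin, 143 in MEP1+CMC, 34.9 in No treatment and 53.9 in naive. Ctsw had 83.6 TMM CPM in the combination, 46.7 in MEP1+Rapamycin, 77.4 in MEP1+Metformin, 147 in MEP1+CMC, 51.5 in No treatment and 51.4 in naive. These genes shared the peak after MEP1+CMC but were not low in the naive cells, whose Prf1 level was not told apart from that of MEP1+Metformin and whose Ctsw level was not told apart from that of No treatment. Gzmb had 6.42 TMM CPM in the combination, 7.20 in MEP1+Rapamycin, 7.62 in MEP1+Metformin, 15.3 in MEP1+CMC, 5.27 in No treatment and 0.484 in naive. Its highest library was again MEP1+CMC, neighbours among the 3 inhibitor libraries did not differ beyond counting error, and the naive value came from 9 counts. Gzma, the gene of a tryptase-like granzyme, had 1.47 TMM CPM in the combination, 2.08 in MEP1+Rapamycin, 0.873 in MEP1+Metformin, 0.768 in MEP1+CMC, 0.556 in No treatment and 2.37 in naive. Its highest values, in the naive and MEP1+Rapamycin libraries, were not told apart, and its counts were only 32 to 82 in any library.

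The receptor genes were scarce. Klrb1c had 0.699 TMM CPM in the combination, 0.486 in MEP1+Rapamycin, 7.65 in MEP1+Metformin, 4.83 in MEP1+CMC and 3.28 in No treatment, and no count in naive, where 0 counts allow up to 0.161 TMM CPM. The 2 libraries with rapamycin were both low and did not differ beyond counting error. Klrd1 had 6.33 TMM CPM in the combination, 7.82 in MEP1+Rapamycin, 5.08 in MEP1+Metformin, 9.13 in MEP1+CMC, 4.26 in No treatment and 17.7 in naive, so it was highest in the naive cells. Klrk1 had 2.76 TMM CPM in the combination, 0.809 in MEP1+Rapamycin, 2.68 in MEP1+Metformin, 3.16 in MEP1+CMC, 3.34 in No treatment and 0.108 in naive. Among the transferred libraries only MEP1+Rapamycin stood below its neighbour beyond counting error for Klrk1. Klrc1 had 98 counts in the combination, 4 in MEP1+Rapamycin, 83 in MEP1+Metformin, 105 in MEP1+CMC, 83 in No treatment and 0 in naive. It showed the same single low transferred library as Klrk1. Of the 50-base windows of Klrc1 transcripts, 38.6% also occur in its paralogs Klrc2 and Klrc3, and 17.0% of those of Klrb1c occur in other genes, so reads of these genes are less certain than those of the other 8, which share none.

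**Figure D1:**
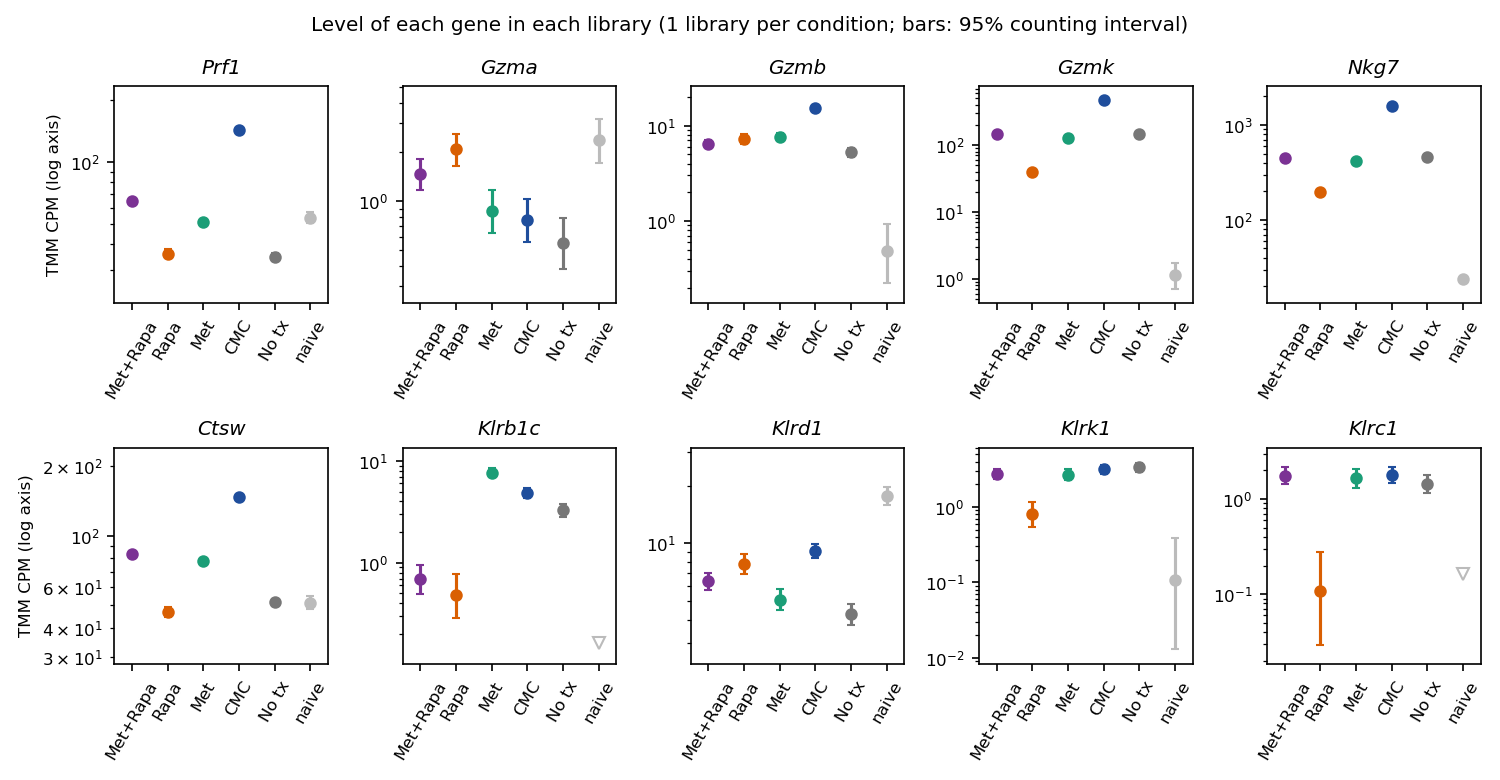
TMM CPM on log axes for each of the 10 genes in the 6 libraries: MEP1+Metformin+Rapamycin (Met+Rapa), MEP1+Rapamycin (Rapa), MEP1+Metformin (Met), MEP1+CMC (CMC), No treatment (No tx) and the naive CD4 control. Points are single libraries with 95% counting intervals and open triangles mark the 3-count limit where no count was seen. Prf1, Gzmb, Gzmk, Nkg7 and Ctsw are highest in CMC, while Klrb1c is low in both libraries with rapamycin.

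Levels of different genes were compared per transcript length, as TMM CPM per kilobase of exon (RPKM). Nkg7 made up 69.3% of the summed RPKM of the 10 genes in the combination, 68.8% in MEP1+Rapamycin, 70.5% in MEP1+Metformin, 76.0% in MEP1+CMC, 74.3% in No treatment and 23.2% in naive. In the naive cells Ctsw led with 37.4%, ahead of Prf1 with 23.5%, and Klrd1 reached 12.4%. The mix of granule genes in the naive library was thus unlike that of the transferred libraries. Over the 10 granzyme genes, Gzmk made up 92.4% of granzyme RPKM in the combination, 71.8% in MEP1+Rapamycin, 90.9% in MEP1+Metformin, 96.4% in MEP1+CMC, 94.5% in No treatment and 11.2% in naive. In naive cells Gzmc, which is no member, had 38.0% and Gzma 37.1%, ahead of Gzmb with 4.69%. In the transferred libraries Gzmb made up 3.04% to 12.9% of granzyme RPKM, and its share was largest in MEP1+Rapamycin, where that of Gzmk was smallest.

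No treatment set against the naive control addresses what differed between transferred, immunised cells and cells that had not been transferred. Granzymes K and B, Nkg7 and the receptors NKG2D and NK1.1 were higher in the transferred cells, whereas granzyme A and CD94 were lower and perforin and cathepsin W did not pass. Of the 9 members past the filter 5 passed as higher and 2 as lower, against 16.4% and 7.54% of all genes. Gzmk was 130-fold higher (log2 ratio 7.02, interval 6.40 to 7.71) and Nkg7 19.5-fold higher (4.28, 4.15 to 4.42). Gzmb was 10.9-fold higher (3.44), and Klrk1, with 2 counts in the naive library, had a log2 ratio of 4.95 (3.08 to 8.01). Klrb1c had a log2 ratio of 4.35 with the naive library set to 3 counts, and its interval ran upward from 4.03. Gzma had a log2 ratio of -2.09 (-2.79 to -1.40) and Klrd1 of -2.06 (-2.30 to -1.81). Prf1 stood at -0.63 (-0.74 to -0.52) and Ctsw at 0.00 (-0.10 to 0.11), with 2007 counts for Prf1 in No treatment and 1001 in naive.

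The wider programme was compared through gene lists. Of 15 measured NK receptor and adaptor genes other than the members, 14 were higher in No treatment and none lower, with a median log2 ratio of 2.69 against 0.08 over all genes. The signalling adaptor genes Fcer1g (5.22) and Tyrobp (4.38) were among the leading ones. Both are also macrophage genes, and the macrophage markers were higher in No treatment too, as given below. Of 14 transcription factor genes of cytotoxic cells, 8 were higher and 2 lower. Tbx21 (4.62), which encodes T-bet, and Eomes (4.20) were among the higher ones, while Runx3 (-0.13) did not pass. The list mixes roles: Zbtb7b is also among the CD4 T-cell markers, with 67.9 TMM CPM in No treatment and 154 in naive. Of 15 genes of granule contents and release, 3 were higher and 1 lower: Stx11 (3.80), which encodes a syntaxin of granule fusion, Fasl (2.44), Cst7 (2.15) and the granzyme gene Gzmc (-1.46). Of 8 receptor genes for cytokines that act on cytotoxic cells, 4 were higher, led by Il18rap (3.91). Beside these, the summed CD8 markers Cd8a and Cd8b1 were at 3.77 TMM CPM in No treatment and 30.3 in naive, and the 5 macrophage markers at 2346 in No treatment and 32.2 in naive. The 4 B-cell markers summed to 18.9 TMM CPM in No treatment and 97.5 in naive and were all lower, and the 4 erythroid markers to 1656 in No treatment and 374 in naive and were all higher. Of the 5 sex-linked genes 4 were higher in No treatment. All 5 sets thus moved with this comparison. Their part in it was not tested, and in bulk samples fewer cells of a type and less RNA per cell cannot be told apart.

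MEP1+CMC set against No treatment asks what MEP1 on days 28 and 35, with the vehicle CMC and without an inhibitor, added. MEP1 and the vehicle cannot be told apart in this comparison. All granule genes but granzyme A were higher: perforin 4.11-fold, Nkg7 3.47-fold, granzyme K 3.24-fold, granzyme B 2.90-fold and cathepsin W 2.86-fold. Among the receptors only the CD94 gene passed, at 2.14-fold. Of the 9 members past the filter 6 passed as higher and none as lower, against 7.76% and 3.72% of all genes. The log2 ratio was 2.04 for Prf1 (1.97 to 2.11), 1.79 for Nkg7 (1.77 to 1.81) and 1.10 for Klrd1 (0.88 to 1.32). Klrb1c had 0.56 (0.28 to 0.83), Klrk1 -0.08 (-0.38 to 0.22, and up to 0.03 with other scalings) and Klrc1 0.31 (-0.12 to 0.75), all short of 2-fold. Gzma, from 45 counts in MEP1+CMC and 32 in No treatment, had 0.47 (-0.22 to 1.17).

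The transcription factor list split in this comparison. Eomes (2.13) and Prdm1 (2.02), which encodes Blimp-1, were higher, Zfp683 (-1.16), which encodes Hobit, was lower, and 11 of the 14 did not pass, with Tbx21 at -0.40 and Runx3 at 0.52. The list's median was 0.08 against -0.04 over all genes. Of the 15 NK receptor and adaptor genes, 5 were higher and 4 lower, with Klre1 (2.14), an NK receptor gene, and Crtam (1.95), an adhesion receptor gene of cytotoxic cells, on one side and Fcgr3 (-2.15) and Tyrobp (-1.89) on the other. Fcgr3 and Tyrobp are also expressed by macrophages, whose 5 markers were all lower, summing to 452 TMM CPM in MEP1+CMC and 2346 in No treatment. The 4 erythroid markers were all lower too, with 349 TMM CPM in MEP1+CMC and 1656 in No treatment. The part of either set was not tested. Of the 5 sex-linked genes 1 was higher and 4 were lower in MEP1+CMC, and this difference and treatment cannot be told apart. Of the granule list only Fasl (1.03), the death ligand gene, was higher and Gzmc (-1.03) lower, with 13 of 15 not passing. H60b, which encodes a ligand of NKG2D, was the only 1 of 4 measured receptor ligand genes to pass (2.30).

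CD8 transcripts were few and nearly level in this pair, with 205 Cd8a and Cd8b1 counts in MEP1+CMC and 217 in No treatment. They were 0.318% of the CD8 and Cd4 counts in MEP1+CMC (exact binomial interval 0.276% to 0.364%) and 0.337% in No treatment (0.294% to 0.385%). Constant-region genes of the gamma T-cell receptor chain passed as higher beside the members: Tcrg-C4 had 11.7 TMM CPM in MEP1+CMC and 2.28 in No treatment, and Tcrg-C1 and Tcrg-C2 passed as well (1.43 and 2.13). The delta constant gene Trdc did not pass, with 264 TMM CPM in MEP1+CMC and 429 in No treatment (-0.70). The part of gamma-delta or other cells in the higher granule genes was not tested.

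**Figure D2:**
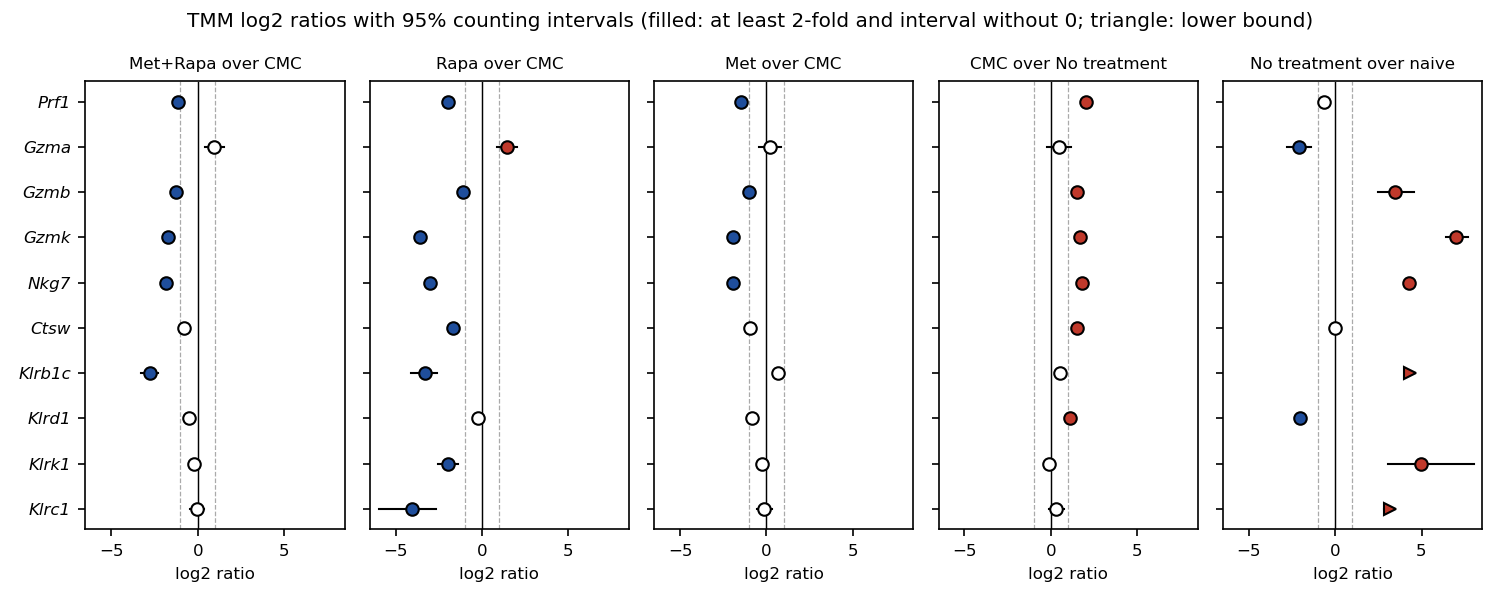
TMM log2 ratios (x axis) of the 10 genes (y axis) in 5 comparisons, with 95% counting intervals. Red and blue points passed as higher and lower, white points did not pass and dashed lines mark 2-fold. Triangles are ratios with the naive library set to 3 counts where it had none. Prf1, Gzmb, Gzmk and Nkg7 lie left of 0 in all 3 comparisons with CMC and Gzma lies right of it.

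The 3 inhibitor arms set against MEP1+CMC ask what metabolic inhibition after MEP1 changed. Perforin, Nkg7, granzyme K and granzyme B were lower in all 3, and for the first 3 of these the ratio was lowest with rapamycin alone. These comparisons share the MEP1+CMC library, so a chance deviation of that library enters all 3, and the difference in sex-linked genes given above is in each of them. Rapamycin alone gave 7 members lower and 1 higher of the 9 past the filter, against 5.83% and 5.15% of all genes. Gzmk was 12.1-fold lower (log2 ratio -3.60, interval -3.67 to -3.52), Nkg7 8.10-fold lower (-3.02, -3.05 to -2.98) and Prf1 3.97-fold lower (-1.99, -2.07 to -1.91). Ctsw fell by 1.66 on the log2 scale and Gzmb by 1.08. Among the receptors Klrb1c fell by 3.31 (-4.09 to -2.63) and Klrk1 by 1.96 (-2.57 to -1.40), and Klrc1 had 4 counts in MEP1+Rapamycin and 105 in MEP1+CMC (-4.05, -5.96 to -2.65). Klrd1 did not pass (-0.22, -0.43 to -0.01). Gzma rose, at a log2 ratio of 1.44 (0.89 to 2.00) from 77 counts in MEP1+Rapamycin and 45 in MEP1+CMC. The fall of Gzmb lay close to 2-fold and no longer passed with any of the 4 other scalings, where the ratio came up to -0.89.

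With metformin alone 4 members were lower and none higher, against 2.98% and 2.66% of all genes. Nkg7 was 3.80-fold lower (log2 ratio -1.93, interval -1.95 to -1.91), Gzmk 3.76-fold lower (-1.91, -1.95 to -1.87) and Prf1 2.80-fold lower (-1.49, -1.55 to -1.42). Gzmb (interval -1.18 to -0.83) lay on the 2-fold threshold and did not pass with any of the 4 other scalings. None of the 4 receptor genes passed: Klrb1c stood at 0.67 (0.44 to 0.89), Klrk1 at -0.24 (-0.57 to 0.09), Klrc1 at -0.12 (-0.55 to 0.31) and Klrd1 at -0.85 (-1.07 to -0.63). With both inhibitors 5 members were lower and none higher, against 3.68% and 3.01% of all genes. Nkg7 had -1.84 (-1.86 to -1.82), Gzmk -1.71 (-1.74 to -1.67), Gzmb -1.25 (-1.43 to -1.07), Prf1 -1.14 (-1.20 to -1.09) and Klrb1c -2.79 (-3.31 to -2.30). Ctsw did not pass with both (-0.82) or with metformin (-0.93). Tcrg-C4 moved with these comparisons, at -1.75 in the combination, -2.25 with rapamycin and -2.04 with metformin. Of the 4 measured gamma-delta marker genes, 3 passed as lower in the combination, 3 with rapamycin and 1 with metformin. Trdc had 276 TMM CPM in the combination, 213 in MEP1+Rapamycin, 279 in MEP1+Metformin and 264 in MEP1+CMC. The 4 erythroid markers were all lower in each arm, with sums of 49.3 TMM CPM in the combination, 89.3 in MEP1+Rapamycin, 50.0 in MEP1+Metformin and 349 in MEP1+CMC. The 4 B-cell markers were all higher in the combination, with 57.4 TMM CPM against 19.9 in MEP1+CMC, and 2 of 4 were lower with metformin. The part of these genes in the results was not tested.

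Among the transcription factor genes, Eomes, Prdm1 and Nfil3 passed as lower in each of the 3 arms. Eomes had 48.1 TMM CPM in the combination, 15.4 in MEP1+Rapamycin, 42.1 in MEP1+Metformin and 165 in MEP1+CMC. Prdm1 had 23.7 TMM CPM in the combination, 10.3 in MEP1+Rapamycin, 24.5 in MEP1+Metformin and 56.6 in MEP1+CMC. Nfil3, which encodes a factor of NK-cell development, had 14.9 TMM CPM in the combination, 16.0 in MEP1+Rapamycin, 22.5 in MEP1+Metformin and 49.3 in MEP1+CMC. These 3 genes were the only ones of the 14 to pass as lower in any arm, and Zfp683 (2.31 with metformin alone) the only one to pass as higher. Tbx21 had log2 ratios of -0.08 in the combination, -0.83 with rapamycin and 0.91 with metformin, and Runx3 of -0.52, -0.76 and -0.82, none of which passed. The median over the 14 was -0.09 with both inhibitors, -0.72 with rapamycin and -0.22 with metformin, against -0.01, -0.13 and -0.04 over all genes.

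**Figure D3:**
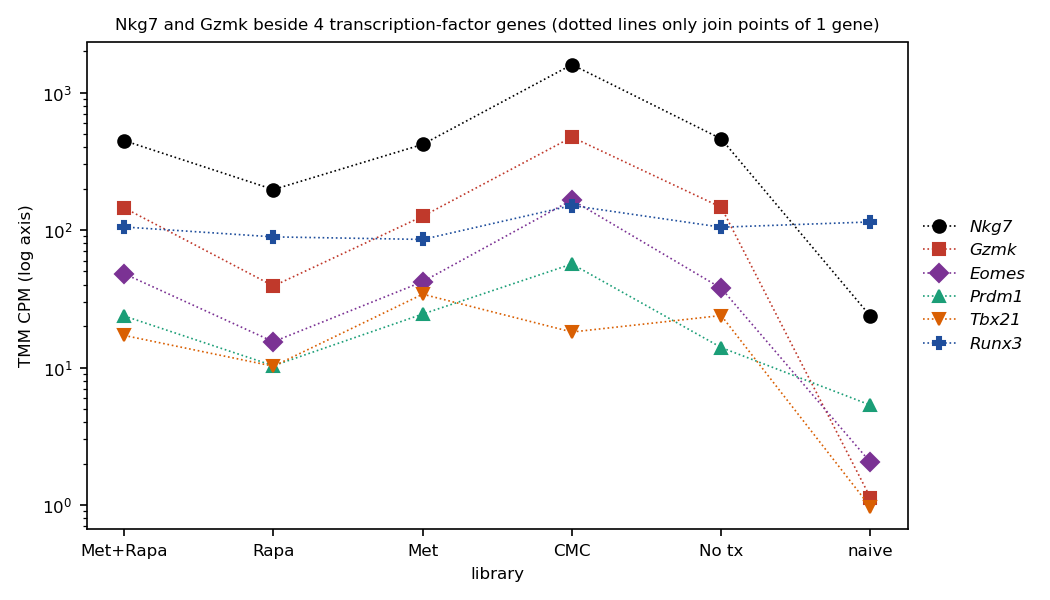
TMM CPM (log axis) of Nkg7, Gzmk and the transcription factor genes Eomes, Prdm1, Tbx21 and Runx3 in the 6 libraries, 1 point per library, with dotted lines that only join the points of a gene; Met, Rapa, Met+Rapa and CMC are the MEP1 libraries with those agents and No tx is No treatment. Eomes has its highest value (165) and its lowest transferred value (15.4) in the same libraries as Nkg7, whereas Runx3 stays between 85.4 and 151.

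Other granule and receptor genes followed in part. Of the 15 granule genes, 4 were lower and 1 higher with rapamycin alone, namely Fasl (-1.72), Stx11 (-1.43), Cst7 (-1.24) and the granzyme inhibitor gene Serpinb9 as lower and Gzmc (1.88) as higher, with a median of -0.55 against -0.13 over all genes. With both inhibitors none passed, and with metformin 1 was lower (Fasl, -1.02) and 1 higher (Gzmc, 1.55), with medians of -0.31 for both and -0.22 for metformin. Of the 15 NK receptor and adaptor genes, 5 were lower and none higher in the combination, 6 lower and 2 higher with rapamycin, and 3 lower and none higher with metformin. Klre1, which encodes a receptor of NK cells, had 33 counts in the combination, 12 in MEP1+Rapamycin, 58 in MEP1+Metformin and 180 in MEP1+CMC. Crtam had log2 ratios of -1.24, -1.87 and -1.38 in the combination, rapamycin and metformin arms and passed in each. Klrg1, a receptor of late effector cells, had 18.2 TMM CPM in the combination, 22.8 in MEP1+Rapamycin, 4.60 in MEP1+Metformin and 11.4 in MEP1+CMC, so it was lower with metformin (-1.31) and above MEP1+CMC in both rapamycin libraries. Of the 8 cytokine receptor genes none passed in the combination, 3 were lower and 1 higher with rapamycin, and 1 was higher and none lower with metformin, with medians of -0.05, -0.16 and -0.06. The gene higher with metformin was Il18rap (1.37), a chain of the IL-18 receptor. Il2rb, the receptor chain shared by IL-2 and IL-15, passed as lower with rapamycin (-1.22), as did Il15ra (-1.19) and Il12rb1 (-1.16), and Il18r1 passed as higher (1.13).

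The inhibitors could also be set against each other and combined, and none of the 5 sex-linked genes passed between any of the 3 libraries. The 4 B-cell markers did differ, with a sum of 57.4 TMM CPM in the combination, 18.9 in MEP1+Rapamycin and 10.9 in MEP1+Metformin. All 4 were higher in the combination than in either single arm, and 2 of 4 were higher in MEP1+Rapamycin than in MEP1+Metformin, and their part in the results was not tested. Rapamycin against metformin gave 4 members lower and 1 higher, against 4.03% of all genes in each direction. Klrb1c fell by 3.98 (-4.75 to -3.30), Klrk1 by 1.73 (-2.35 to -1.15), Gzmk by 1.68 (-1.77 to -1.60) and Nkg7 by 1.09 (-1.13 to -1.05), and Gzma rose by 1.25 (0.70 to 1.82). The Nkg7 difference fell short of 2-fold with DESeq2 size factors and with TMM over the filtered genes, where the log2 ratio came up to -0.96. The combination against rapamycin alone gave 3 members higher and none lower, against 3.33% and 3.01% of all genes: Gzmk (1.89, 1.81 to 1.97), Klrk1 (1.77, 1.20 to 2.39) and Nkg7 (1.18, 1.14 to 1.22). Klrc1 had 98 counts in the combination and 4 in MEP1+Rapamycin (4.03, 2.62 to 5.93). The combination against metformin alone gave 1 member lower and none higher, against 1.71% and 1.27% of all genes. That member was Klrb1c (-3.45, -3.97 to -2.97), while Nkg7 (0.09), Ctsw (0.11), Gzmk (0.20) and Prf1 (0.34) were within 1.27-fold.

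Nkg7, Ctsw, Gzmk and Prf1 in the combination were thus close to their levels with metformin alone, and Klrb1c close to that with rapamycin alone. Gzmb did not pass against either, at -0.25 against metformin alone and -0.17 against rapamycin alone. Gzma in the combination lay between them, at 0.75 (0.21 to 1.32) against metformin alone and -0.50 (-0.96 to -0.03) against rapamycin alone, and neither ratio passed. For Gzmk, adding rapamycin went with a log2 ratio of 0.20 when metformin was present and of -3.60 when it was absent. For Nkg7 the same values were 0.09 and -3.02, for Prf1 0.34 and -1.99, for Ctsw 0.11 and -1.66, and for Klrk1 0.04 and -1.96. For Klrb1c they were -3.45 and -3.31. With 1 library per condition the difference between the paired ratios has no test.

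**Figure D4:**
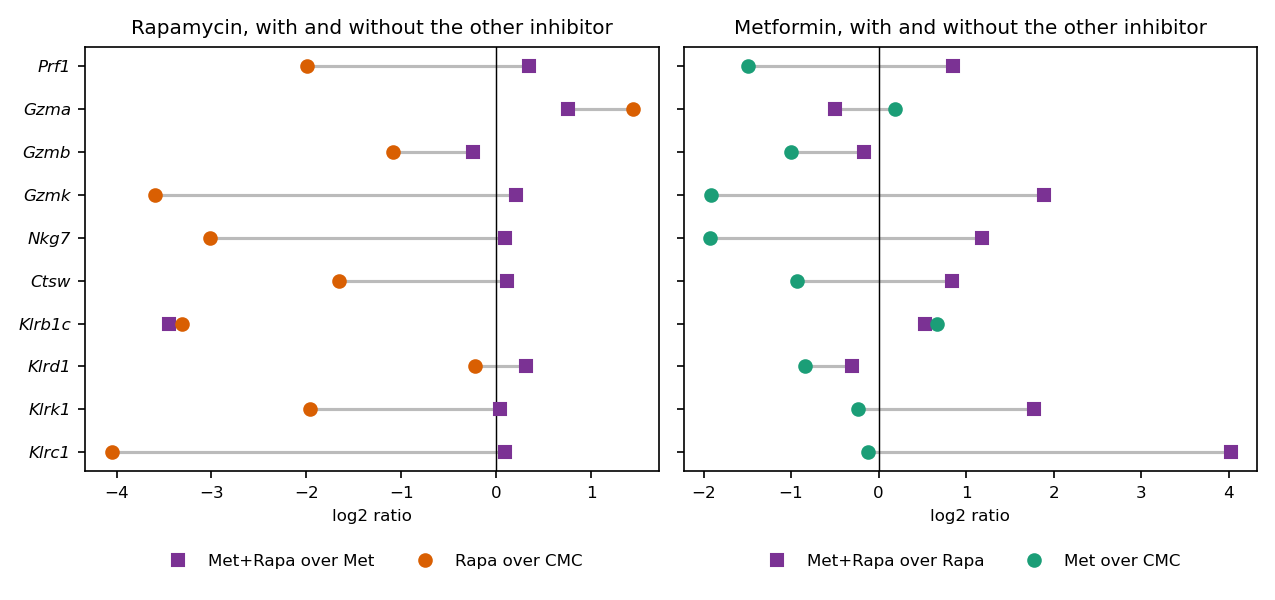
Log2 ratios (x axis) of the 10 genes (y axis) for adding rapamycin (left) and adding metformin (right); squares are the ratio with the other inhibitor present, circles the ratio over MEP1+CMC without it. For Gzmk the rapamycin ratio is 0.20 with metformin and -3.60 without, while for Klrb1c it is -3.45 with metformin and -3.31 without.

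Against No treatment, the inhibitor libraries showed where the members stood relative to cells not given MEP1 on days 28 and 35. In the combination 1 member was higher (Gzma, 1.40, 0.80 to 2.04) and 1 lower (Klrb1c, -2.23, -2.77 to -1.73), against 8.46% and 4.92% of all genes, and Gzmk (-0.01) and Nkg7 (-0.04) did not pass and took the other sign with other scalings, up to 0.22 and 0.19. With rapamycin 1 was higher (Gzma, 1.90, 1.29 to 2.54) and 4 lower, against 9.04% and 7.28% of all genes. The lower ones were Klrb1c (-2.76, -3.54 to -2.06), Klrk1 (-2.04, -2.65 to -1.48), Gzmk (-1.90, -1.98 to -1.82) and Nkg7 (-1.22, -1.26 to -1.19). Of these, Nkg7 did not pass with library totals, with or without the rRNA-like genes, where the ratio came up to -0.92. Klrd1 (0.88) fell short of 2-fold but passed with each of the 4 other scalings, which gave up to 1.18. With metformin only Klrb1c passed (1.22, 0.97 to 1.48), as higher, against 8.87% of all genes higher and 5.26% lower. Macrophage markers moved with these comparisons, summing to 277 TMM CPM in the combination, 208 with rapamycin and 260 with metformin, against 2346 in No treatment. Erythroid markers did so as well, with 49.3, 89.3 and 50.0 TMM CPM in the same libraries against 1656 in No treatment. B-cell markers did so in the combination (57.4 against 18.9 in No treatment). Of the 5 sex-linked genes, 4 were higher and 1 lower in the combination and with metformin. With rapamycin 3 were higher and 1 lower. This difference and treatment cannot be told apart.

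Models that pool libraries gave the only p-values. The first sets all 5 transferred libraries against the same naive library, so a chance deviation of that library enters every tally of 5. In edgeR's quasi-likelihood test of the 5 transferred libraries against naive, none of the 9 members was called after Benjamini-Hochberg adjustment over 12838 genes, against 9.81% of all genes, and 5 had an unadjusted p below 0.05. Klrd1 had a log2 fold change of -1.45 (SE 0.41, adjusted p = 0.0535) and was lower in 5 of 5 transferred libraries. Gzmb had 4.11 (SE 1.17, adjusted p = 0.0569) and was higher in 5 of 5, as were Nkg7 (4.72, SE 1.54, adjusted p = 0.120) and Gzmk (7.36, SE 2.40, adjusted p = 0.127). DESeq2 called 6 of the 9 in the same design, namely Klrb1c, Klrd1, Klrk1, Nkg7, Gzmb and Gzmk. The 9.81% of all genes is the edgeR share and is no background for these 6. Over all settings of this model the number of genes called ran from 704 to 3729. In the edgeR test of the 4 MEP1 libraries against No treatment no member was called (adjusted p from 0.358 to 0.982), against 1.90% of all genes, and none had an unadjusted p below 0.05. The metformin term of the additive model likewise called none (adjusted p from 0.673 to 0.999), against 0.164% of all genes, and none had an unadjusted p below 0.05. DESeq2 called no member in either. The rapamycin term called Klrb1c, at -3.41 (SE 0.47, edgeR adjusted p = 0.00160), lower in both libraries with rapamycin, against 0.273% of all genes. That call was lost with DESeq2 size factors (adjusted p = 0.0644), with TMM over the filtered genes (0.0506) and with no filter (0.907). The spread in that model is the departure from additivity alone, on 1 residual degree of freedom.

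Because the members are best known from CD8 T cells and NK cells, their markers were followed through all libraries. CD8 counts (Cd8a and Cd8b1) were 0.428% of CD8 and Cd4 counts in the combination (exact interval 0.376% to 0.485%), 0.942% in MEP1+Rapamycin (0.828% to 1.07%), 0.320% in MEP1+Metformin (0.272% to 0.372%), 0.318% in MEP1+CMC, 0.337% in No treatment and 5.16% in naive (4.75% to 5.59%). The share depends on Cd4 as well: the summed CD8 markers were at 6.61 TMM CPM in MEP1+Rapamycin and 3.50 in MEP1+CMC. Cd8b1 passed as higher in that pair (5.77 against 2.61 TMM CPM), and Cd8a did not pass (0.836 against 0.887). The naive library, with the largest CD8 share, was also the highest in Klrd1 and Gzma. MEP1+Rapamycin, with the next largest, was the highest transferred library in Gzma and the lowest in Gzmk and Nkg7. Its Klrd1 level, 7.82 TMM CPM, was below that of MEP1+CMC (9.13). These values stand side by side here, and the part of CD8 cells in them was not tested. Of 8 NK-cell markers, 3 passed the filter, and 2 of those, Tyrobp and Fcer1g, are also macrophage genes. The remaining gene past the filter, Klre1, had 33 counts in the combination, 12 in MEP1+Rapamycin and 58 in MEP1+Metformin. It had 180 counts in MEP1+CMC, 40 in No treatment and 0 in naive. The 8 markers summed to 50.4 TMM CPM in the combination, 68.7 in MEP1+Rapamycin, 43.0 in MEP1+Metformin, 61.1 in MEP1+CMC, 197 in No treatment and 7.86 in naive. Tyrobp and Fcer1g made up most of this sum, with 111 and 84.0 TMM CPM in No treatment. The NK receptor gene Ncr1, a defining marker, had 19 counts in the combination, 55 in MEP1+Rapamycin, 73 in MEP1+Metformin, 55 in MEP1+CMC, 23 in No treatment and 0 in naive. In naive, 5 of the 8 were at 0. The NK receptor genes Klra4, Klra8 and Klra9 had 0 to 12 counts in any library. Klri2 had 40 counts in the combination, 1 in MEP1+Rapamycin, 22 in MEP1+Metformin, 37 in MEP1+CMC, 14 in No treatment and 0 in naive. The part of NK cells in the levels of the members was not tested. Zbtb16, which encodes the factor PLZF of NKT cells, had 34 counts in the combination, 15 in MEP1+Rapamycin, 70 in MEP1+Metformin, 18 in MEP1+CMC, 5 in No treatment and 0 in naive. Its highest library, MEP1+Metformin, was also the highest in Klrb1c, and the part of NKT cells in that level was not tested.

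**Figure D5:**
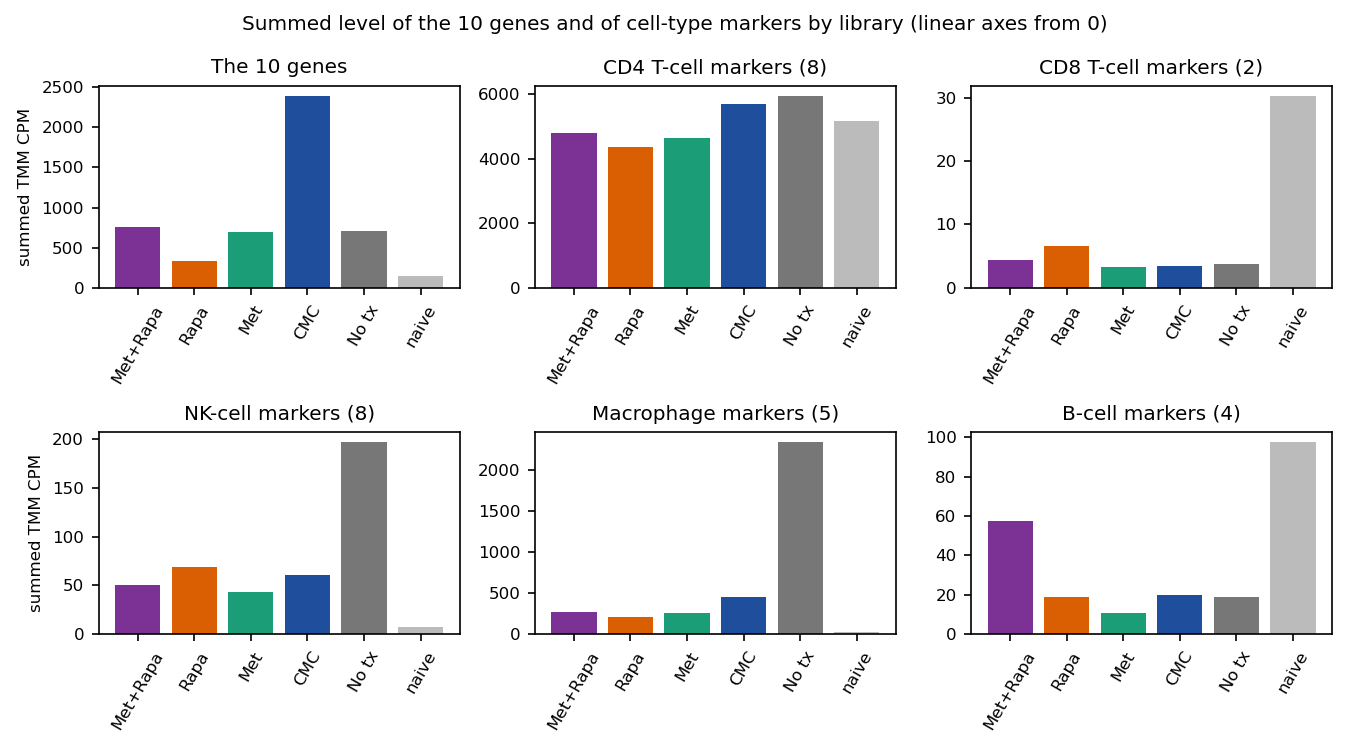
Summed TMM CPM (linear axes from 0) of the 10 genes and of marker lists for CD4 T cells, CD8 T cells, NK cells, macrophages and B cells in the 6 libraries, named as in the plot of levels; each bar is 1 library and the number of genes in a list is in brackets. The 10 genes sum to 2395 in CMC, where the CD8 markers sum to 3.50, and the macrophage markers sum to 2346 in No treatment.

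The genes most like 3 of the members over the 6 libraries were found by the root mean square difference of centred log2(TMM CPM + 0.5), a description with no test. For Nkg7 they were Serpina9 (0.11), Eomes (0.17) and Serpina3g (0.21). For Prf1 they were Unc5cl (0.16), Cd7 (0.21) and Tcrg-C4 (0.22), and Ctsw was the nearest other member (0.25), ranked 7 of the filtered genes. For Gzmb they were Kremen2 (0.16), Vsig10 (0.19) and Rnf43 (0.23). The members were not each other's nearest genes: Gzmb stood at 0.78 from Nkg7 (rank 105) and Gzmk at 0.81 (rank 118), whereas Prf1 stood at 1.64 (rank 2999).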

How the data were processed

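Libraries were made from sorted cells with an ultra-low-input preparation, per the labels. The authors trimmed reads with Trimmomatic 0.36, aligned them with STAR 2.5.2b to GRCm38 and counted them per gene with featureCounts of Subread 1.5.2, per the submitters' processing notes. The deposited values are raw counts of 49315 Ensembl genes, of which 48970 matched a GENCODE symbol. Strand and multi-mapping settings are not given in the sources used here. From these counts TMM factors were computed over all genes (edgeR 4.0.16, R 4.3.3), and they lay between 0.711 (naive) and 1.15 (MEP1+Rapamycin). The 11 pairs of libraries were compared by TMM log2 ratios with exact 95% Clopper-Pearson intervals, and a library with 0 counts was set to 3 counts. The 4 pooled models used edgeR's quasi-likelihood test with Benjamini-Hochberg adjustment at 0.05. DESeq2 1.42.0 was an alternative, beside other scalings and filters and leaving out single libraries. On simulated counts the size rule recovered 99.0% of 200 genes changed 3-fold in the comparison of the combination with metformin, and the model of transferred against naive cells recovered 57.0% of 200 genes changed 4-fold.

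All 10 members are named; of each list at most the 4 genes with the largest passing ratio are named, plus Eomes, Tbx21 and Runx3. Serpinb9, Tyrobp, Klrg1, Tcrg and marker genes named beyond that were chosen after their values were seen. The members and lists were chosen with earlier results of these data known. Each condition has 1 library, so the p-values of the pooled models measure the spread between different conditions and not between replicates.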

Additional observations from a re-analysis of the deposited data

Results flagged for a closer look

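For Gzmk and Nkg7 the ratio for adding metformin pointed in opposite directions depending on whether rapamycin was present. For Gzmk the log2 ratio was 1.89 in the combination over MEP1+Rapamycin and -1.91 in MEP1+Metformin over MEP1+CMC, a difference of 3.80. For Nkg7 these ratios were 1.18 and -1.93, a difference of 3.11. Each ratio comes from 1 library per condition, and the difference was not tested. The libraries of the first ratio had like levels of sex-linked genes, whereas those of the second did not, and treatment and that difference cannot be told apart.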

How the results depend on the processing

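None of the member ratios that passed changed direction under another scaling or filter. Of those that did not pass, 8 took both signs over the scalings. They were Ctsw in No treatment against naive (-0.09 to 0.42) and in MEP1+Rapamycin against No treatment (-0.14 to 0.16), Klrk1 in MEP1+CMC against No treatment (-0.08 to 0.03), and Gzmb in MEP1+Rapamycin against MEP1+Metformin (-0.08 to 0.05). The others, all against No treatment, were Gzmk (-0.01 to 0.22) and Nkg7 (-0.04 to 0.19) in the combination and Gzmk (-0.22 to 0.04) and Nkg7 (-0.13 to 0.13) in MEP1+Metformin. Of 99 ratios, 3 calls were lost and 1 gained with DESeq2 size factors and with TMM over the filtered genes, and 3 lost and 3 gained with library totals, with or without the rRNA-like genes. Library totals moved the median of all genes by more than 0.1 in 8 of the 11 comparisons, most in No treatment against naive, where it was 0.50 with library totals and 0.08 with TMM. In MEP1+Rapamycin against No treatment the median was 0.07 with library totals and -0.20 with TMM. DESeq2 size factors and TMM over the filtered genes each moved it by more than 0.1 in 4 comparisons, all with the MEP1+Rapamycin library. With a mean of at least 10 CPM required only Prf1, Gzmk, Nkg7 and Ctsw were left. The members passing were then 2 in No treatment against naive, 4 in MEP1+Rapamycin and 3 in the combination against MEP1+CMC, 2 in MEP1+Rapamycin against MEP1+Metformin, 0 in the combination against MEP1+Metformin, and 0 in the combination, 2 in MEP1+Rapamycin and 0 in MEP1+Metformin against No treatment. In the model of transferred against naive libraries, members called were 0 by edgeR, 3 with library totals, 3 with legacy quasi-likelihood, 1 with no filter and 6 with DESeq2. Leaving out 1 library gave 0 to 4 called, with 4 without MEP1+CMC and 2 without No treatment or without MEP1+Rapamycin. These member counts have no fixed background, because the number called among all genes also moved over the settings (704 to 3729). The rapamycin term called 0 members with DESeq2 size factors, with TMM over the filtered genes, with no filter and with the stricter filter, which left Klrb1c untested. TMM over the filtered genes, legacy quasi-likelihood and totals without rRNA-like genes were chosen after seeing the data. Over all genes, the number passing in MEP1+CMC against No treatment was 1474, and 250 to 5362 over all settings, and that called in transferred against naive was 1259, and 704 to 3729. No paired analysis was possible because each condition has 1 library. Depth limits Gzma, Klrc1 and the naive values of Gzmb, Gzmk and Klrk1, which rest on few counts.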
